A study of Homo sapiens with 8 samples.

Results

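The 8 libraries of this study came from HepG2, a human liver tumour line with many hepatocyte functions, and were labelled as batch 1 (4 libraries) or batch 2 (4 libraries). Each batch held 2 libraries of cells given a negative control siRNA (siControl) and 2 of cells given an siRNA against NAT10 (siNAT10), an enzyme that acetylates cytidines in RNA. All 8 were harvested 2 days after transfection, and polyadenylated RNA was counted from its 3′ end with a Lexogen QuantSeq kit. Batch 1 consists of replicates 1 and 2 of both siRNAs and batch 2 of replicates 3 and 4, so that all 8 of the 8 libraries in the series enter the comparison. It asks which transcripts differed between the batches at equal siRNA, and siRNA was therefore kept as a term in the model. The labels give the batch as a number only. Whether the batches differ in culture, transfection, RNA extraction, library preparation or sequencing cannot be told apart, and nothing in the labels says that replicates came from separate cultures, so the p-values measure the spread between these libraries, which may be technical.

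Many of the gene groups below belong to well-known responses of cultured cells. Hypoxia-inducible factors bind the word ACGTG or GCGTG in promoters and enhancers and raise genes for glycolysis, mitophagy and blood vessel growth when oxygen falls. The aryl hydrocarbon receptor (AHR) is activated by planar aromatic compounds, including plant and tryptophan products found in media and serum, and binds GCGTG to raise CYP1A1. Serum response factor (SRF) binds the CArG box and answers serum and the state of actin, while the coactivator YAP works through TEAD factors and answers tension and cell density.

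The upstream sequences of 4 genes are shown here. They were picked because each holds the word bound by the factor its group is named for, so the presence of the word is no result. BNIP3 is among the smaller falls described below. Each is the 250 bases before the gene's start in RefSeq (GRCh38.p14), written 5′ to 3′ along the gene, with the matches on either strand in capitals. For ANKRD37 (chr4:185396591-185396840, plus strand) and BNIP3 (chr10:131981924-131982173, minus strand), both hypoxia-inducible, the word is ACGTG, for CYP1A1 (chr15:74725529-74725778, minus strand) it is GCGTG, and for SRF (chr6:43171019-43171268, plus strand) it is the CArG box.
ANKRD37: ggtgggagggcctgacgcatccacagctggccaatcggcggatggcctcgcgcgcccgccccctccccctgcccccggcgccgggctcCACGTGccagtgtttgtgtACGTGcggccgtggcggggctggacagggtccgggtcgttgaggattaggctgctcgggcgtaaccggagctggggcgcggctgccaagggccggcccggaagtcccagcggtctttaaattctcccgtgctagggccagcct
BNIP3: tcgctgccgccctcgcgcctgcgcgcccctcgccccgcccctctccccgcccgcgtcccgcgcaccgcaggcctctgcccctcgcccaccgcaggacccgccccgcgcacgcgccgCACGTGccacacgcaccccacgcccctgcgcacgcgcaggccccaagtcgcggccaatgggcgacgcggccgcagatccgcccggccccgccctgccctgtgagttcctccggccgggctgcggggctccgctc
CYP1A1: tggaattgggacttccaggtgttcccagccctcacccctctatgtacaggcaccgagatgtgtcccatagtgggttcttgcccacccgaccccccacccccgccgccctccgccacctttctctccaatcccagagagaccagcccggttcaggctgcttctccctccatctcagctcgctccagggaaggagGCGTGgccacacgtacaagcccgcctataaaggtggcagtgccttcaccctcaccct
SRF: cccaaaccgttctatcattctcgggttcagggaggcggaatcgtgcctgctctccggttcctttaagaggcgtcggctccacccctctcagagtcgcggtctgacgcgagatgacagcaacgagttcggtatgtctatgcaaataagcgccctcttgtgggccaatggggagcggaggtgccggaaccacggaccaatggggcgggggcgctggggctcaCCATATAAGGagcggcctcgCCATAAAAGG

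ANKRD37 holds 3 matches to ACGTG, beginning 162, 161 and 143 bases before the start. The first 2 overlap, since CACGTG reads as ACGTG on both strands, and the same holds for the 2 matches in BNIP3. BNIP3 also holds 4 matches to GCGTG, not capitalised here. CYP1A1 holds 1 GCGTG, 57 bases before the start, and SRF holds 2 CArG boxes, 30 and 10 bases before the start. The CYP1A1 window also holds ACGTG on the other strand, not capitalised here. Among the 27305 promoters of the RefSeq table, 18.7% hold ACGTG in these 250 bases, 31.9% hold GCGTG and 1.14% hold a CArG box. Among the 9764 tested genes with an entry, the shares were 23.3%, 45.5% and 0.952%. Such a match is a description of the sequence and does not show binding. For HILPDA, ANKZF1 and VEGFA no sequence is shown. Only 18 of the 23 hypoxia-inducible genes tested had an entry, 10 of them with ACGTG, which is too few for a comparison of that list with other promoters. Of the 9 with an entry that were called lower, 4 hold ACGTG, and MXI1, PDK1 and P4HA2 hold neither ACGTG nor GCGTG.

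The batch 1 libraries held 17347226 to 27977110 counts and the batch 2 libraries 9731718 to 22512520, a difference with an exact permutation p of 0.11 (two-sided; 70 arrangements, smallest possible p 0.029). NAT10 checked the siRNA labels in both batches. It read 44.4 and 39.0 CPM (counts scaled to the size of the library) with siControl against 13.1 and 12.2 with siNAT10 in batch 1, and 77.6 and 49.0 against 19.99 and 22.5 in batch 2, with a batch difference of its own (log2 0.67 ± 0.13, edgeR adjusted p = 0.002) that was not called in siControl alone or without the siRNA term. The summed level of 13 hepatocyte lineage markers was 10100 to 13100 CPM in batch 1 and 9790 to 13000 in batch 2, led by ALB. APOB, a defining product of this line, was at 0 in 7 libraries and SERPINA1 was between 1.71 and 13.2 CPM, so these 2 were nearly or wholly absent from the counts. Fibroblast, endothelial, squamous and neural marker lists summed to at most 3.26 CPM in every library. The blood list, whose level was nearly all LYZ, summed to 367 to 565 CPM in batch 1 and 342 to 484 in batch 2, with PTPRC, HBB, MS4A1 and CD3E at 0. Of 11 library measures, 3 separated the batches without overlap (exact permutation p = 0.029 each, adjusted p = 0.1): the share of counts from the mitochondrial chromosome (1.31% ± 0.229 in batch 1, 1.77% ± 0.119 in batch 2), the share in gene identifiers without a GENCODE entry (1.59% and 1.35%) and the mean GC content of transcript ends (44.19% and 43.96%).

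Batch was the main axis of these libraries. The first principal component carried 37.3% of the variance and placed batch 1 between -28.9 and -27.2 and batch 2 between 25.9 and 32.2, while the second, with 17.6%, was set mainly by siNAT10 replicate 4 (-42.5) and siControl replicate 3 (28.2), both of batch 2. By edgeR's quasi-likelihood test, 3510 of 14217 genes (24.7%) differed between the batches at an adjusted p under 0.05. Of these, 1839 (12.9% of genes tested) were higher in batch 2 and 1671 (11.8%) lower. At least 2-fold differences were reached by 303 called genes upward (2.13%) and 264 downward (1.86%), and the median size of a called difference was 0.57 on the log2 scale. Without any model, all 4 batch 2 libraries lay above all 4 batch 1 libraries for 1627 genes (11.4%) and below them for 1543 (10.9%). Of the genes named below, the 12 with the largest rise and the 12 with the largest fall were taken from called genes with separate batches, so that separation is a description in them and no support. Called members named from each list were mostly those with the largest changes, so separate batches in them are also a description and no support. The median log2 fold change over all genes was 0.004, against which the list medians below are to be read. Counts of called members are likewise to be read against the 12.9% of all genes called higher and the 11.8% called lower. In bulk RNA a lower level can come from fewer cells of a kind or from less RNA per cell, and these cannot be told apart.

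The difference appeared in both siRNA groups, which share no library. Between the 2 siControl libraries of each batch, 1314 of 14252 genes (9.22%) were called, and 1270 of the 1291 that could also be fitted in siNAT10 (98.4%) had the same sign there. Between the siNAT10 libraries, 1188 of 13779 genes (8.62%) were called, and 1155 of 1179 (98%) had the same sign in siControl. Over 13586 genes fitted in both, 74.7% had the same sign, with a correlation across genes of 0.648 (Pearson) or 0.646 (Spearman), where genes are not independent replicates. A test of whether the batch difference depended on the siRNA called 0 of 14745 genes (0%) by edgeR and 1 gene by DESeq2. By edgeR, 465 genes (3.15%) had an unadjusted p under 0.05. With 2 libraries of each siRNA in each batch this test has little power, so it does not show that the differences were equal.

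**Figure D1:**
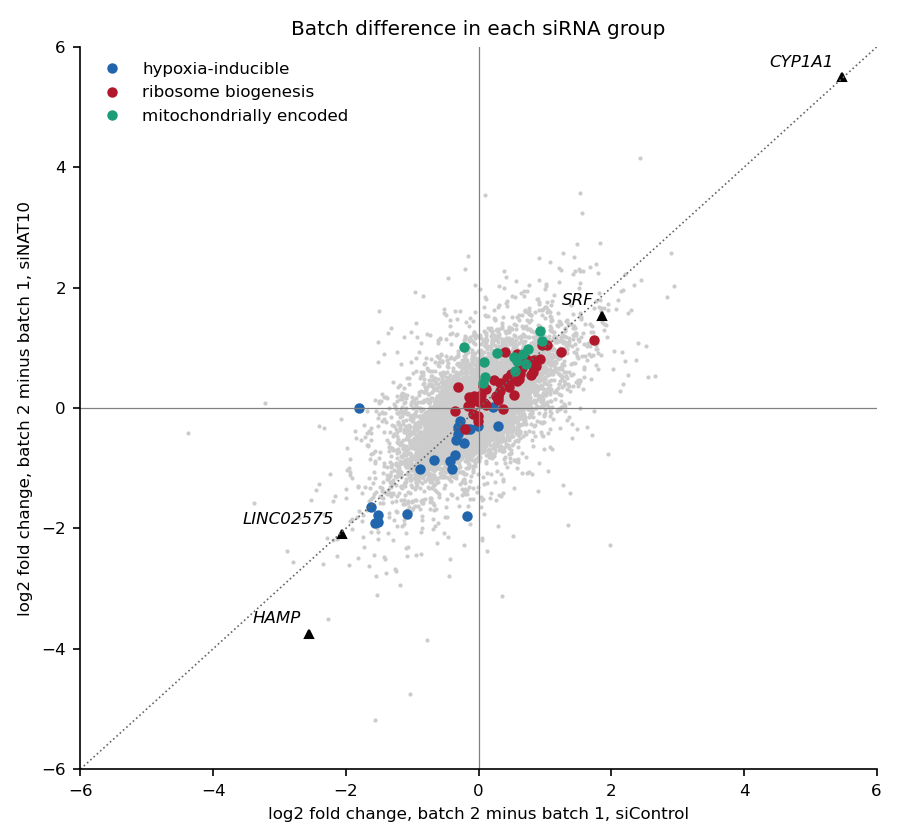
Log2 fold change between batches (batch 2 minus batch 1) in siControl on the x axis and in siNAT10 on the y axis, with 1 grey point for each of 13583 genes and coloured points for 3 gene lists. Hypoxia-inducible genes lie mostly to the lower left, ribosome biogenesis and mitochondrially encoded genes to the upper right, and CYP1A1 lies at 5.48 and 5.50 on the dotted line of equal change.

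CYP1A1, a cytochrome P450 enzyme that oxidises aromatic compounds and the standard target gene of AHR, showed the largest rise among the genes named here. It lies at chr15:74719542-74725536 in GENCODE 44 (GRCh38) and read 3.54 and 2.35 CPM with siControl and 5.65 and 4.25 CPM with siNAT10 in batch 1. In batch 2 it read 128 and 142 CPM with siControl and 261 and 183 CPM with siNAT10. No batch 2 library came near any batch 1 library. The fitted difference was 45.0-fold (log2 5.49 ± 0.16 SE, edgeR adjusted p = 2.4e-12), and it was 5.48 in siControl alone and 5.50 in siNAT10 alone. Of 7 AHR targets listed, 4 passed the count filter and 2 of those were called higher, CYP1A1 and the weakly expressed aldehyde dehydrogenase ALDH3A1 (log2 1.32). Leaving out any 1 of siControl replicates 1, 2 and 4 and siNAT10 replicates 2 and 3 left 1 call. TIPARP, an AHR-induced inhibitor of the receptor, read 8.02 to 9.91 CPM in batch 1 and 10.1 to 14.0 in batch 2, without overlap, but its log2 fold change of 0.40 ± 0.15 had an edgeR adjusted p of 0.058. The repressor AHRR stood at 0.275 to 0.458 CPM and 0.394 to 1.01 CPM (edgeR adjusted p = 0.058). CYP1A2, CYP1B1 and UGT1A6 did not pass the filter. The receptor gene AHR itself went the other way, from 20.6, 24.7, 33.4 and 31.5 CPM in batch 1 to 14.4, 18.1, 16.2 and 20.2 in batch 2, again without overlap (log2 -0.66 ± 0.13, edgeR adjusted p = 0.0017).

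**Figure D2:**
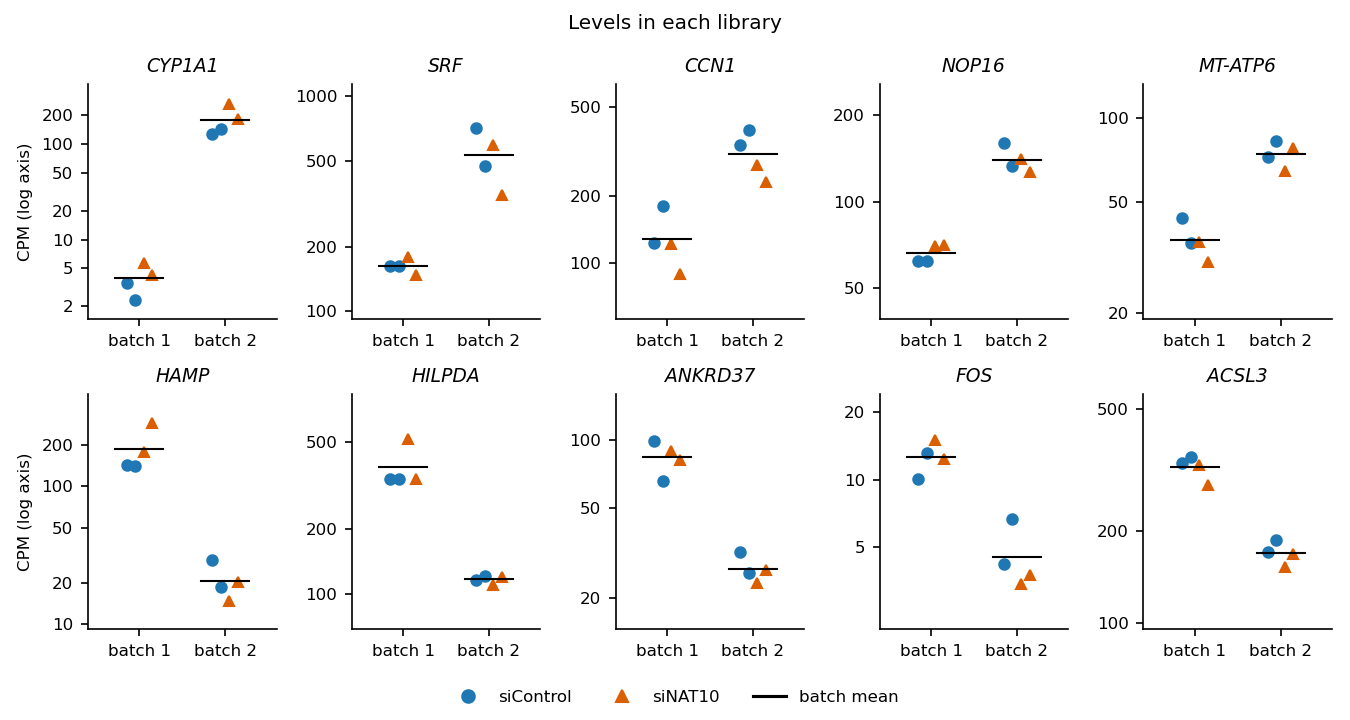
CPM of 10 genes in each library on log axes, with batch 1 and batch 2 on the x axis, circles for siControl, triangles for siNAT10 and lines for batch means. In every panel the 4 libraries of batch 2 lie apart from the 4 of batch 1, from 2.35 to 5.65 against 128 to 261 CPM for CYP1A1 and from 140 to 289 against 14.7 to 29.1 CPM for HAMP.

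Genes induced by hypoxia fell in batch 2. Of 24 listed genes 23 were tested, 13 were called lower and 0 higher, where 11.8% of all genes were called lower. The list's median was -0.59, and all 4 batch 2 libraries lay below all 4 batch 1 libraries for 14 members, as for 10.9% of all genes. Leaving out 1 library at a time gave 11 to 15 called lower and a median between -0.70 and -0.46. The score of the list in a library, the mean of log2 CPM over members after centring each gene, was 0.38 and 0.30 with siControl and 0.48 and 0.30 with siNAT10 in batch 1. In batch 2 it was -0.35 and -0.24 with siControl and -0.57 and -0.29 with siNAT10. The median was -0.35 in siControl alone and -0.68 in siNAT10 alone. No single gene passed the test of that difference, which has little power as said above.

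HILPDA, a lipid droplet protein that blocks the triglyceride lipase, read 337 and 339 CPM with siControl and 517 and 337 with siNAT10 in batch 1. It read 116, 122, 111 and 119.9 CPM in the 4 batch 2 libraries, in the same order. The groups were far apart, and HILPDA was 3.25-fold lower (log2 -1.70 ± 0.13, edgeR adjusted p = 8.7e-07). ANKRD37, a small ankyrin repeat protein that is a sensitive marker of this response, read 99.1, 65.9, 89.2 and 81.0 CPM in batch 1 and 31.9, 25.7, 23.2 and 26.6 in batch 2 (log2 -1.64 ± 0.14, edgeR adjusted p = 1.3e-06). Its upstream window is the one with 3 ACGTG matches shown above. ANKZF1, which frees stalled chains from ribosomes, fell from 275, 252, 356 and 321 CPM to 106, 73.3, 90.0 and 90.0 (log2 -1.73 ± 0.13). MXI1, a repressor that opposes MYC, fell from between 40.1 and 41.4 CPM in all 4 batch 1 libraries to 13.6, 13.3, 8.75 and 17.5. ANGPTL4, a secreted inhibitor of lipoprotein lipase, fell from 171, 168, 208 and 150.0 CPM to 78.3, 83.5, 50.1 and 55.1.

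Smaller falls were called for the histone demethylase KDM3A (log2 -0.94), the kinase PDK1 that keeps pyruvate out of mitochondria (-0.77), the vasodilator peptide ADM (-0.70), the vessel growth factor VEGFA (-0.65), the mitophagy receptors BNIP3 (-0.43) and BNIP3L (-0.37), the sterol sensor INSIG2 (-0.40) and the collagen hydroxylase P4HA2 (-0.31). VEGFA read 252, 249.6, 238 and 205 CPM in batch 1 and 179, 194, 107 and 135 in batch 2. Among these, BNIP3L and P4HA2 lost the call when some single libraries were left out: BNIP3L without siControl replicate 1 or siNAT10 replicate 3, and P4HA2 without any 1 of 6 libraries. The list did not move as a block. CA9, the carbonic anhydrase widely used as a hypoxia marker, read 258, 367, 428 and 414 CPM in batch 1 and 339, 427, 315 and 368 in batch 2, fully overlapping, with a log2 fold change of -0.004 ± 0.14. The hormone STC2 stood at 0.12, and the hydroxylase P4HA1 and the oxidase ERO1A at -0.25 and -0.26, none of them called.

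**Figure D3:**
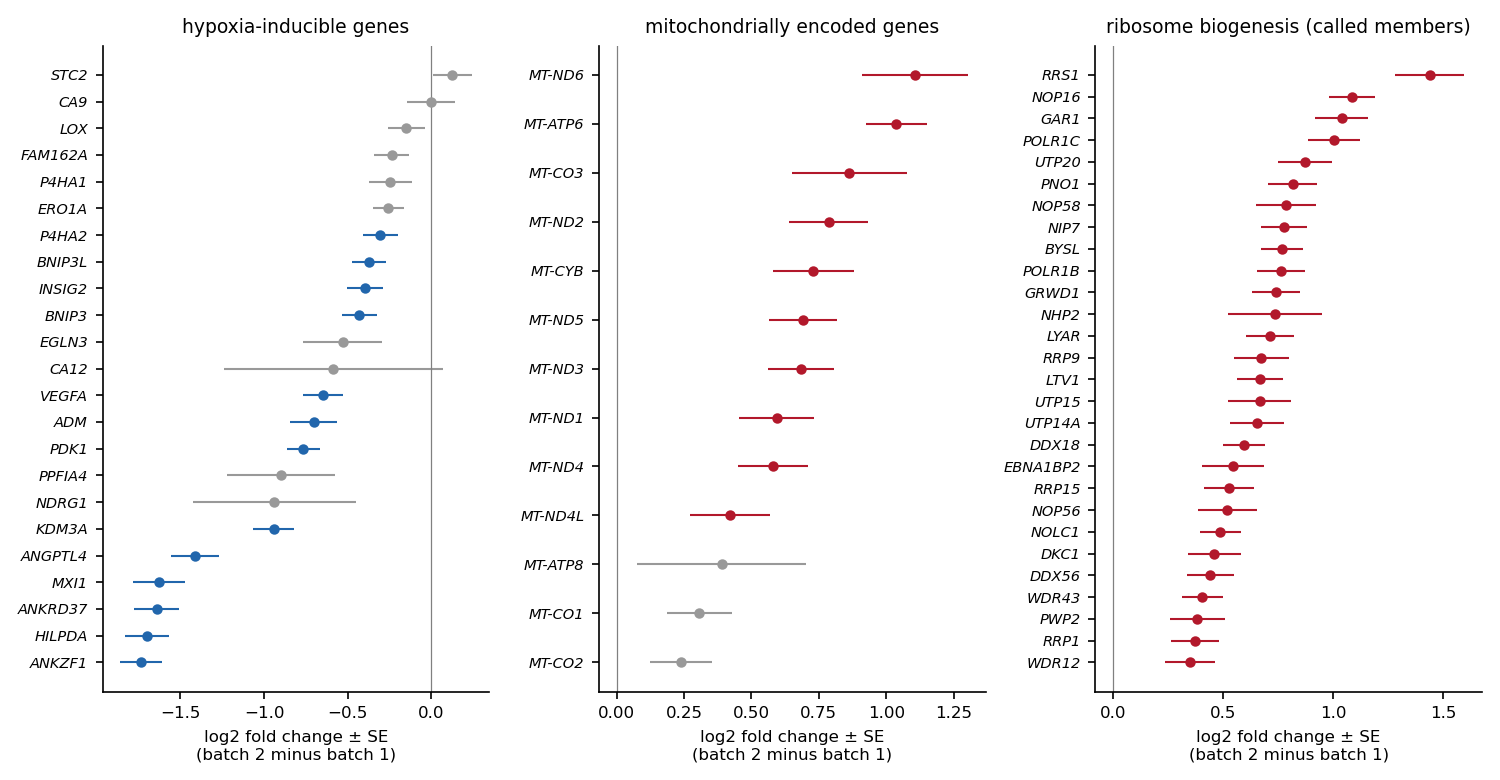
Log2 fold change ± SE (batch 2 minus batch 1) of all tested hypoxia-inducible and mitochondrially encoded genes and of the 28 ribosome biogenesis genes called, red for called higher, blue for called lower and grey for not called. Hypoxia-inducible genes run from -1.73 for ANKZF1 to 0.12 for STC2, and all 13 mitochondrially encoded genes lie to the right of 0.

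Glycolytic genes were lower in part. Of 20 genes tested, 7 were called lower and 0 higher (median -0.22), where 11.8% of all genes were called lower. There were 4 called lower when siControl replicate 1 or siNAT10 replicate 2 was left out, and 1 called higher when siControl replicate 3 was. PFKFB4 and PFKFB3, which make the activator of phosphofructokinase and are themselves hypoxia-inducible, fell by 0.96 and 0.73 on the log2 scale. PFKFB4 read 149, 138, 198 and 191 CPM in batch 1 and 71.6, 98.7, 79.5 and 94.7 in batch 2. SLC16A3, the lactate exporter, fell from 1604, 2072, 2033 and 2188 CPM to 1033, 1230.0, 1233 and 1395 (log2 -0.69 ± 0.11, edgeR adjusted p = 4e-04). None of these 3 overlapped between the batches. The other 4 lower calls were the enzymes HK2 (log2 -0.51), ENO2 (-0.38), PFKL (-0.38) and PKM (-0.37), each of which lost its call without some single libraries: HK2 without siControl replicate 1 or 4 or siNAT10 replicate 1, 2 or 3, ENO2 without siControl replicate 1 or siNAT10 replicate 1, PFKL without siControl replicate 2 or siNAT10 replicate 2 or 4, and PKM without siControl replicate 1 or 4 or siNAT10 replicate 2, 3 or 4. Other steps were not called: GAPDH stood at -0.17 ± 0.17 (edgeR adjusted p = 0.51), PGK1 at 0.01 ± 0.11 (0.98) and the glucose transporter SLC2A1 at 0.21 ± 0.10 (0.14). LDHA and ALDOA, usually abundant in cultured cells, did not pass the count filter, as APOB did not. The reason was not tested, and their absence is not read as low expression.

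HAMP, which encodes hepcidin, the liver hormone that blocks iron export and is raised by inflammation through STAT3 and by bone morphogenetic proteins, showed the largest fall among the genes named here. It lies at chr19:35280716-35285143 and read 141 and 139.8 CPM with siControl and 175 and 289 with siNAT10 in batch 1. In batch 2 it read 29.1 and 18.5 CPM with siControl and 14.7 and 20.01 with siNAT10. The batches were separate, with an 8.75-fold lower level in batch 2 (log2 -3.13 ± 0.23, edgeR adjusted p = 6.5e-07), or -2.56 in siControl alone and -3.75 in siNAT10 alone. SOCS3, the feedback inhibitor of STAT3 signalling, fell from 8.01, 7.16, 12.6 and 7.64 CPM to 1.78, 1.30, 0.625 and 1.18 (log2 -2.78 ± 0.28, edgeR adjusted p = 5.3e-06). It was picked after its value was seen, and it was the 1 called of 6 tested genes of the SOCS family, whose median was -0.13. PIM1, a kinase induced by cytokines through STAT factors, fell from 72.3, 75.0, 113 and 80.8 CPM to 15.2, 17.8, 37.0 and 33.2 (log2 -1.80 ± 0.15). CEBPD, a transcription factor of the acute phase response, fell from 164, 138, 114 and 110.3 CPM to 36.2, 48.7, 26.2 and 38.3 (log2 -1.82 ± 0.13). HAMP, SOCS3, PIM1 and CEBPD come from no list for STAT signalling. Of 13 tested targets of TGF-beta and bone morphogenetic proteins, 2 were called lower and 0 higher (median -0.17). Over all genes, 11.8% were called lower. Those lower calls ranged from 1 to 3 when single libraries were left out. The acute phase list as a whole was mixed, with 3 of 10 tested genes called lower and 1 higher, and 6 of its 16 genes, SAA1, SAA2, CRP, HP, ORM2 and LBP, below the filter. FGL1, a hepatocyte secreted protein, fell by 0.63, the receptor antagonist IL1RN rose by 0.64, and STAT3 itself stood at -0.33, not called. The list's median of -0.33 became 0.11 when no filter on low counts was used, its higher calls numbered 2 without siControl replicate 2 or siNAT10 replicate 1 and 3 without siControl replicate 3, and its lower calls 5 without siNAT10 replicate 4. Of 13 iron genes tested, 2 were called lower, where 11.8% of all genes were. They were HAMP and the iron importer SLC11A2 (log2 -0.36), of which SLC11A2 lost its call without siNAT10 replicate 3. The iron exporter SLC40A1 was called higher (log2 0.40) but lost that call without any 1 of siControl replicates 1, 2 and 4 and siNAT10 replicates 1, 2 and 4. TFRC, FTH1 and FTL were not called.

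Immediate-early genes, which answer growth factors within minutes, fell in part. Of 26 tested, 8 were called lower and 3 higher, with a median of -0.23, where 11.8% and 12.9% of all genes were called. The 3 higher calls were ATF3 (log2 0.70), KLF6 (0.53) and KLF10 (0.39), and the higher calls numbered 0 without siControl replicate 4 and 5 without siNAT10 replicate 4. FOS, a subunit of the AP1 factor, read 10.1, 13.2, 15.04 and 12.4 CPM in batch 1 and 4.21, 6.66, 3.44 and 3.75 in batch 2 (log2 -1.49 ± 0.20, edgeR adjusted p = 8.5e-05). ZFP36, which destabilises cytokine mRNAs, fell from 54.5, 81.5, 89.8 and 83.6 CPM to 27.3, 40.8, 28.9 and 29.8. NR4A1, an orphan nuclear receptor, fell by 1.09 and the ERK-induced factor ETV5 by 0.65. FOS, ZFP36 and NR4A1 each kept all batch 2 libraries below all batch 1 libraries. EGR1, JUN and MYC, of the same class, were not called, at 0.37, -0.19 and 0.02. The list score overlapped between batches (-0.003 to 0.25 and -0.21 to 0.09), where siControl replicate 4 was the high library of batch 2.

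Some clock genes and genes of fatty acid and triglyceride synthesis fell. Among 17 clock genes 8 were called lower and 0 higher, with a median of -0.34, where 11.8% of all genes were called lower. With single libraries left out, 7 to 9 clock genes were called lower. BHLHE40, a repressor in the clock that hypoxia also induces, read 84.0, 81.8, 94.2 and 90.7 CPM in batch 1 and 39.4, 53.9, 24.6 and 37.3 in batch 2 (log2 -1.20 ± 0.16, edgeR adjusted p = 8e-05). NFIL3 fell by 0.85, the receptor RORA by 0.76, the liver output factor HLF by 0.63 and PER1 by 0.62. HLF was steady within batch 1, at 268 to 277 CPM, against 153 to 190.5 in batch 2. The core activators CLOCK and BMAL1 were not called (-0.22 and 0.59). Of 16 genes of fatty acid and triglyceride synthesis, 7 were called lower and 0 higher (median -0.38), with 4 without siControl replicate 2. ACSL3, which activates fatty acids at lipid droplets, fell from 333, 348, 329 and 282 CPM to 170.5, 186, 152 and 168 (log2 -0.93 ± 0.10, edgeR adjusted p = 9.9e-06). The desaturase SCD fell from 1193, 1229, 872 and 1037 CPM to 935, 848, 645 and 550.4, where the batches overlapped, and the elongase ELOVL6 fell by 0.78. FASN, ACLY and SREBF1 were not called. Cholesterol synthesis was mixed, with 2 of 17 called higher and 3 lower and a median of 0.03. Leaving out any single library brought its higher calls to 0 or 1, and leaving out siControl replicate 2 or 4 or siNAT10 replicate 2 brought its lower calls to 1.

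Ribosome biogenesis stood out in the other direction. This pathway transcribes, cuts and folds ribosomal RNA in the nucleolus. Of 53 genes tested, 28 were called higher and 0 lower, where 12.9% of all genes were called higher, and the median was 0.37 (0.37 in siControl alone and 0.36 in siNAT10 alone). Leaving out single libraries gave 23 to 28 called higher, and 1 called lower without siControl replicate 3. Scores were -0.20, -0.19, -0.21 and -0.18 in batch 1 and 0.20, 0.18, 0.23 and 0.17 in batch 2, a narrow spread within each batch. NOP16, a nucleolar protein of the large subunit pathway, read 62.2, 62.1, 69.9 and 70.8 CPM in batch 1 and 160.4, 133, 141 and 127 in batch 2 (log2 1.09 ± 0.11, edgeR adjusted p = 4.4e-06). GAR1, a core protein of the particles that convert uridine to pseudouridine, rose from 68.7, 70.8, 80.4 and 62.7 CPM to 127, 159, 168 and 127 (log2 1.04 ± 0.12). RRS1, needed for large subunit assembly, rose by 1.44, POLR1C, a subunit shared by RNA polymerases I and III, by 1.00 and the small subunit factor UTP20 by 0.87. NOP16, GAR1, POLR1C and UTP20 each had separate batches. The 28 also include the snoRNP proteins NOP56, NOP58 and DKC1 and the polymerase I subunit POLR1B. The protein components of the finished ribosome were mostly not called: among 75 cytosolic ribosomal protein genes 3 were called higher (RPS13, RPL30 and RPL39) and 0 lower, with a median of 0.04. That count was 1 without siControl replicate 2 or siNAT10 replicate 4 and 5 without siControl replicate 3, and 1 gene was called lower without siNAT10 replicate 4.

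**Figure D4:**
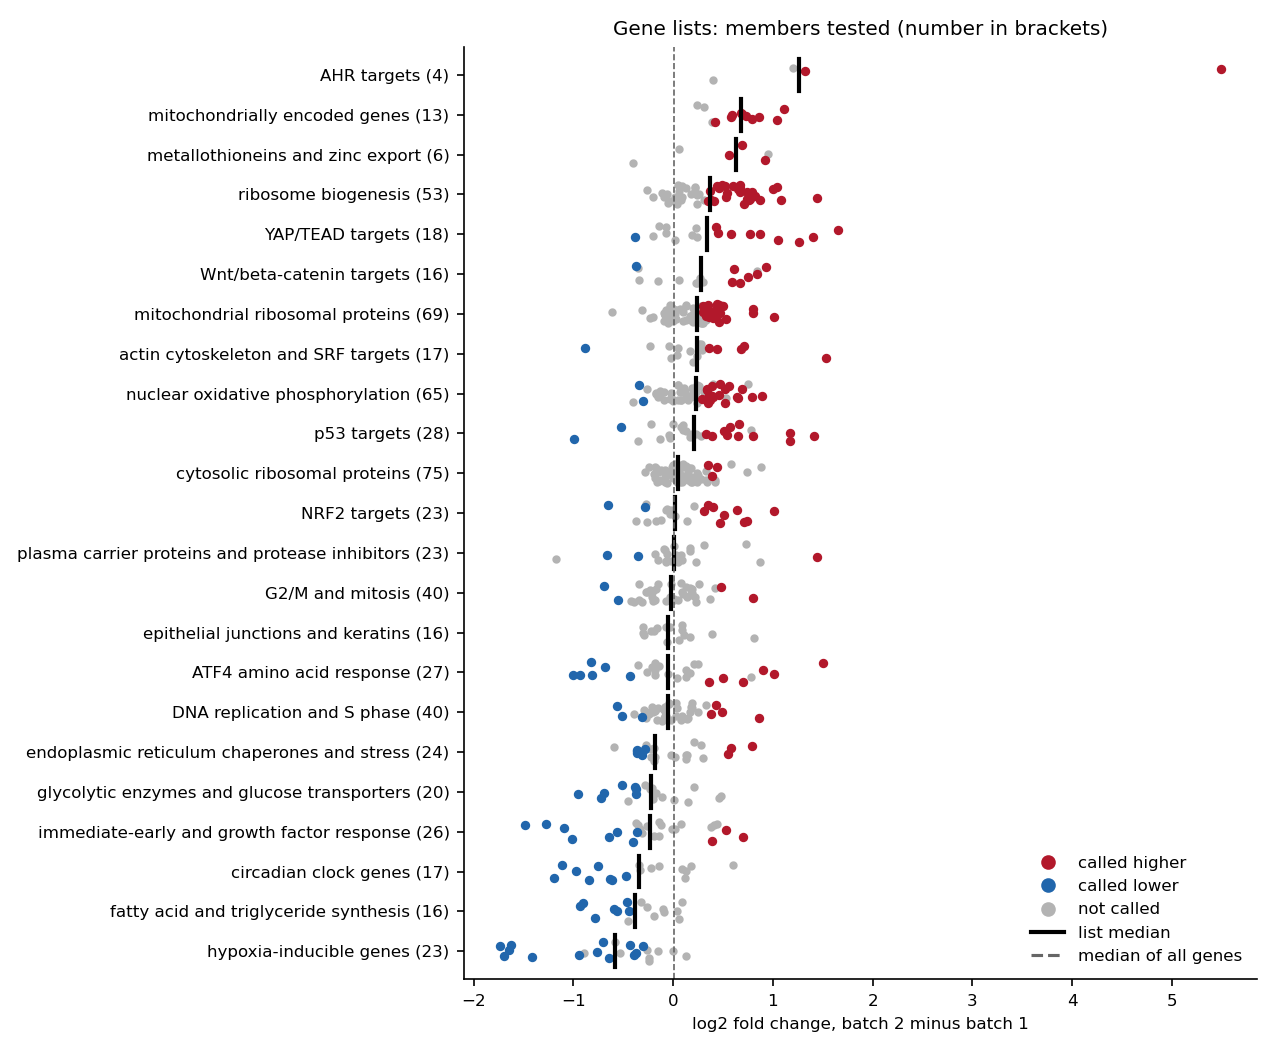
Log2 fold change between batches for every tested member of 23 gene lists, ordered by the list median (black bar), with red for called higher, blue for called lower, grey for not called and a dashed line at the median of all genes. Medians run from -0.59 for hypoxia-inducible genes to 1.26 for AHR targets, where CYP1A1 alone lies beyond 5.

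Many genes of the respiratory chain and of mitochondrial ribosomes were called higher, where 12.9% of all genes were. They were 10 of 13 encoded by the mitochondrial genome, 24 of 69 for mitochondrial ribosomal proteins and 21 of 65 for nuclear respiratory subunits. The mitochondrial genome encodes 13 subunits of the respiratory chain. All 13 had higher fitted levels in batch 2 and 10 were called, with a median of 0.68 and 8 to 11 calls when single libraries were left out. MT-ATP6, a subunit of the ATP synthase, read 43.97, 35.5, 35.8 and 30.3 CPM in batch 1 and 72.6, 82.6, 64.9 and 78.2 in batch 2 (log2 1.04 ± 0.11, edgeR adjusted p = 1.4e-05). MT-ND6, the 1 subunit encoded on the other strand, rose from 18.1, 18.4, 30.4 and 14.2 CPM to 27.6, 42.4, 61.8 and 45.1 (log2 1.11 ± 0.20), with siControl replicate 3 below siNAT10 replicate 1. As the strand setting of the counts is not given, the MT-ND6 counts may include tags from the opposite strand. MT-CYB rose by 0.73 and MT-ND2 by 0.79. MT-CO3 had a fitted rise of 0.86 but lost its call without siControl replicate 4. It read 297, 304, 288 and 247 CPM in batch 1 and 296, 710, 378 and 681 in batch 2. There siControl replicate 3 lay within the range of batch 1, and both replicates 4 were well above both replicates 3. The most abundant, MT-CO2, stood at 5232, 4712, 3753 and 3613 CPM against 5230.0, 5173, 5394 and 4410, which overlapped, and it was not called (log2 0.24 ± 0.11, edgeR adjusted p = 0.14). The list score set siNAT10 replicate 2 apart in batch 1 (-0.70, against -0.25 to -0.15 in the other 3), and batch 2 ranged from 0.23 to 0.47. The share of counts from the mitochondrial chromosome, given above, contains the counts of these 13 genes and is no separate measure. It also contains mitochondrial ribosomal RNA, at 0.42% of counts in batch 1 and 0.57% in batch 2 (batch means).

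Among 69 mitochondrial ribosomal protein genes, 24 were called higher and 0 lower (median 0.24). That count was 15 when siControl replicate 2 was left out, 11 when siNAT10 replicate 1 was and 13 when siNAT10 replicate 3 was, and 1 gene was called lower when siNAT10 replicate 4 was. MRPL33 rose from 253, 249.5, 326 and 266 CPM to 510.2, 454, 544 and 397 (log2 0.80 ± 0.12), and MRPL18 by 0.80, each with separate batches. Nuclear genes for respiratory subunits gave 21 called higher and 2 lower of 65 (median 0.22), with 12 higher without siControl replicate 2 and 7 without siNAT10 replicate 3. The scores of this list overlapped between batches (-0.14 to -0.01 in batch 1, -0.017 to 0.17 in batch 2). The lower calls numbered 0 or 1 when any library but siNAT10 replicate 4 was left out. ATP5PF, in the stalk of the ATP synthase, rose by 0.89 and ATP5PD by 0.79. ATP5PF read 98.3, 86.2, 93.8 and 98.0 CPM in batch 1 and 226, 136, 213 and 122 in batch 2, where both replicates 3 were well above both replicates 4.

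**Figure D5:**
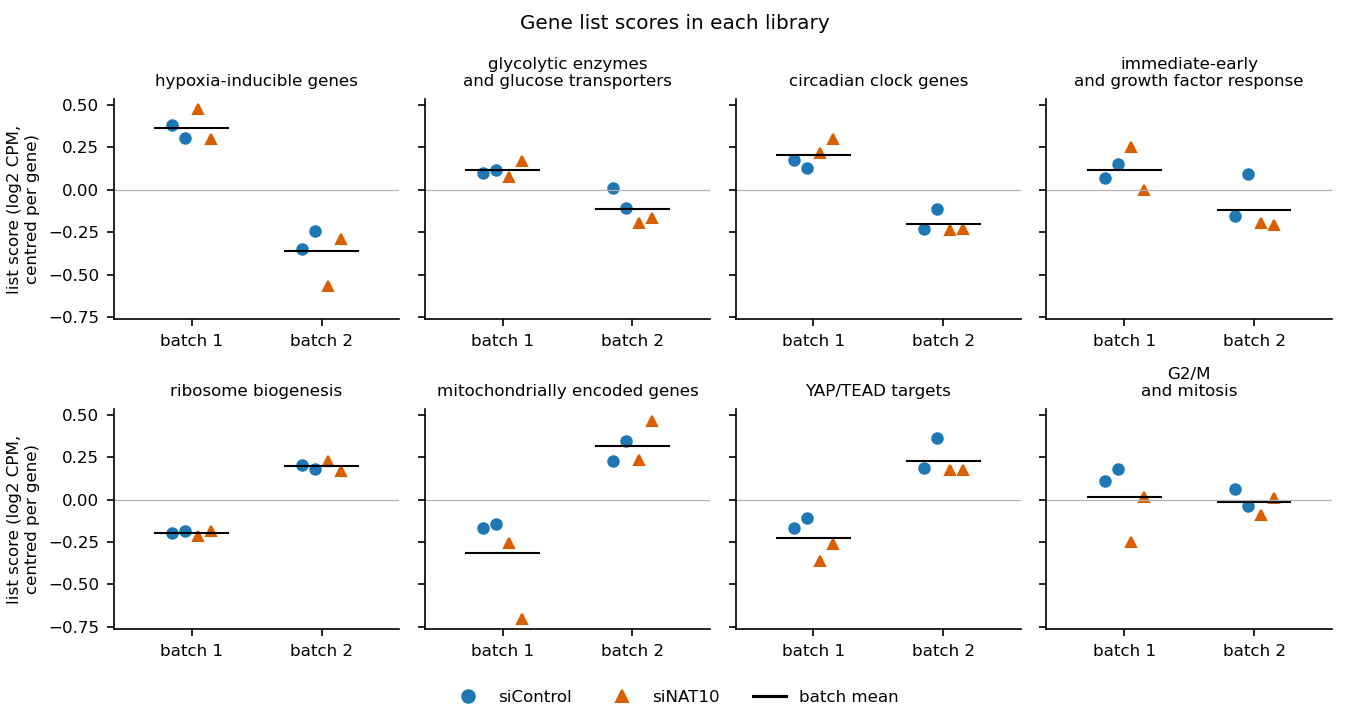
Score of 8 gene lists in each library (mean over members of log2 CPM centred per gene), with batch 1 and batch 2 on the x axis, circles for siControl, triangles for siNAT10 and lines for batch means. Hypoxia, glycolysis and clock scores are lower in batch 2, ribosome biogenesis, mitochondrially encoded and YAP/TEAD scores are higher, and the immediate-early and G2/M scores overlap.

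SRF itself and several genes of adhesion and tension rose. SRF, at chr6:43171269-43181506, read 163 and 162 CPM with siControl and 179 and 147 with siNAT10 in batch 1. In batch 2 it read 710.1 and 476 CPM with siControl and 596 and 348 with siNAT10. All batch 2 values were above all batch 1 values, with a 3.25-fold difference (log2 1.70 ± 0.16, edgeR adjusted p = 3.7e-06), and the upstream window of SRF is the one with 2 CArG boxes. Of 17 other genes of the actin cytoskeleton and SRF response, 5 were called higher and 1 lower (median 0.23), with 8 higher without siNAT10 replicate 4. Over all genes, 12.9% were called higher and 11.8% lower. VCL, which links integrins to actin, rose from 26.0, 29.9, 23.1 and 25.4 CPM to 45.3, 49.1, 37.2 and 39.2 (log2 0.71 ± 0.10). The tropomyosin TPM1 rose by 0.44, TAGLN by 0.68 and MYL9 by 0.36. MYL9 lost its call without any 1 of siControl replicates 1, 2 and 4 and siNAT10 replicate 1. The fifth call, ACTG1, rested on a mean of about 1 CPM and has near-identical copies, so its value is uncertain. ACTB was not called (0.28). The lower call, TPM2, was lost without any 1 of siControl replicates 1 and 4 and siNAT10 replicates 1, 2 and 4.

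YAP and TEAD raise genes of spreading and growth when cells are sparse or under tension. Of 18 targets tested, 9 were called higher and 1 lower, where 12.9% and 11.8% of all genes were called. The median was 0.34, with 7 to 9 higher calls when single libraries were left out. CCN1, a secreted matrix protein, read 123.4, 180.2, 121 and 89.8 CPM in batch 1 and 338, 393, 273 and 231 in batch 2 (log2 1.26 ± 0.13, edgeR adjusted p = 9.6e-06). AJUBA, a junction protein that inhibits the LATS kinases, rose from 31.4, 35.9, 34.5 and 38.6 CPM to 65.1, 75.9, 80.7 and 68.9. CCN2 rose by 0.87, where siControl replicate 3 (297 CPM) lay below siControl replicate 2 (301 CPM). ANKRD1 rose by 0.45 but lost its call without siControl replicate 2 or 3 or siNAT10 replicate 1 or 3. NUAK2 and FJX1 had larger fold changes (1.40 and 1.65) at about 1 to 2 CPM. The lower call, ASAP1, was lost without any 1 of the 4 siControl libraries or without siNAT10 replicate 3.

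Wnt targets, which in this line are kept high by an activating deletion in beta-catenin, gave 6 called higher and 1 lower of 16 (median 0.28). The shares over all genes were 12.9% called higher and 11.8% lower. CCND1, the cyclin of G1 entry, read 265, 224, 256 and 316 CPM in batch 1 and 588, 462, 576 and 396 in batch 2 (log2 0.93 ± 0.14, edgeR adjusted p = 0.00017). BMP4 rose by 0.84, the feedback repressors SP5 and NKD1 by 0.75 and 0.61, and the glutamine synthetase GLUL by 0.67, all with separate batches. AXIN2 and NOTUM, direct targets of the pathway, stood at 0.29 and 0.26, not called, and the stem cell receptor LGR5 was lower (-0.37). The lower calls of this list numbered 0 without siNAT10 replicate 2, 2 without siControl replicate 3 and 3 without siNAT10 replicate 4.

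Targets of p53 gave 11 called higher and 2 lower of 28 (median 0.21), where 12.9% and 11.8% of all genes were called. CDKN1A, which encodes the cell cycle inhibitor p21, read 159, 128, 165 and 134 CPM in batch 1 and 212, 262, 252 and 194.5 in batch 2 (log2 0.65 ± 0.12, edgeR adjusted p = 0.0012). PHLDA3, an inhibitor of AKT, rose by 1.17, while BBC3, the cell death activator PUMA, fell from 238, 231, 296 and 218 CPM to 109, 111, 156 and 121 (log2 -0.99 ± 0.12). MDM2, the feedback ligase of p53, was not called (0.10). NRF2 targets, the antioxidant genes, were split, with 9 called higher and 2 lower of 23 tested and a median of 0.02. The scores of this list ran from -0.18 to 0.033 in batch 1 and from 0.038 to 0.089 in batch 2. The higher calls were genes of glutathione supply, SLC7A11 (log2 1.01), GCLC (0.74) and GCLM (0.51), of the thioredoxin system, TXN (0.47) and TXNRD1 (0.34), and of aldehyde and ketone reduction, AKR1B10 (0.64), AKR1C1, AKR1C2 and AKR1C3. TXNRD1 lost its call without any 1 of siControl replicates 1, 2 and 4. The AKR1C sequences are so alike that counts may be split between them. OSGIN1 (-0.66) and GPX2 (-0.28) were lower, and NQO1 and HMOX1 were not called (0.02 and 0.21). The lower calls of this list ranged from 1 to 4 when single libraries were left out, with 4 without siControl replicate 3 and 1 without siControl replicate 1 or 4 or siNAT10 replicate 2 or 3. The zinc exporter SLC30A1, induced by zinc, rose by 0.69, and 2 of 5 tested metallothioneins rose (MT1E by 0.92, MT1F by 0.56). Metallothionein sequences are near-identical, so the split between them is uncertain.

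Stress transcripts under ATF4 did not move together, with 6 called higher and 6 lower of 27 (median -0.06). ATF5 rose from 36.7, 40.9, 44.2 and 31.6 CPM to 128, 109, 119.6 and 78.5 (2.84-fold, edgeR adjusted p = 3.2e-06). The cell death factor DDIT3 and the phosphatase subunit PPP1R15A fell by 1.00 and 0.94. Liver transcription factors also split: CEBPA rose from 156, 228, 196 and 272 CPM to 319, 349, 368 and 399 and HNF4A by 0.67, while CEBPB fell by 0.82 and the bile acid repressor NR0B2 by 0.76. Plasma carrier proteins and protease inhibitors gave 1 called higher and 2 lower of 23 (median 0.01), and ALB was not called (-0.08 ± 0.10, edgeR adjusted p = 0.6). The higher call was SERPINA1, at the low counts given above. It was lost without siControl replicate 4, and there were 2 higher calls without siNAT10 replicate 1. The lower calls, A2M and FETUB, numbered 0 without siControl replicate 1 or 4 and 1 without siControl replicate 3 or siNAT10 replicate 2 or 3. Fibrinogen and coagulation genes gave 0 called higher and 3 lower of 16 (median -0.04), FGA (log2 -0.39), FGL1 (-0.63) and F12 (-0.67), with 3 lower whichever library was left out. Proliferation lists gave 4 called higher and 3 lower of 40 for DNA replication and 2 and 2 of 40 for G2/M, where 12.9% and 11.8% of all genes were called. The DNA replication calls became 2 higher without siControl replicate 1 or siNAT10 replicate 3 and 5 lower without siNAT10 replicate 1 or 4. The G2/M lower calls became 7 without siNAT10 replicate 1 or 4 and 1 without siControl replicate 1 or 4 or siNAT10 replicate 2 or 3, the higher calls became 1 without siNAT10 replicate 1 or 2 or siControl replicate 4, and the list's scores overlapped between the batches. None of 16 tested junction and keratin genes was called in the edgeR fit with all 8 libraries, while 1 was called higher without siControl replicate 2 or 4 and 1 lower without siControl replicate 4 or siNAT10 replicate 4.

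Among called genes with a mean of at least 8 CPM and separate batches, the largest rises after CYP1A1 were those of the zinc finger gene ZNF557, SRF, the chromatin remodeller SRCAP and LINC00261, a long non-coding RNA next to FOXA2. LINC00261 read 150.0, 190.5, 155 and 135 CPM in batch 1 and 709, 559.5, 384 and 329 in batch 2 (3.03-fold, edgeR adjusted p = 2.3e-06). NCOA5, a nuclear receptor coactivator, rose from 29.9, 40.0, 36.0 and 32.0 CPM to between 93.8 and 108 (log2 1.55 ± 0.11). The developmental factor WT1 rose by 1.54, EIF1AD by 1.54, the RNA deadenylase TOE1 by 1.53 and the splicing factor SRSF2 by 1.38. SRSF2 read 151 to 159 CPM in batch 1 and 348 to 449.6 in batch 2. Among the largest falls was LINC02575, a long non-coding RNA at chr21:44485463-44495519, from 268, 238, 311 and 326 CPM to 59.7, 62.5, 71.0 and 78.7 (log2 -2.07 ± 0.10, edgeR adjusted p = 2.4e-09). The transporter gene SLC45A3 fell by 1.92, NYAP1 by 1.82, the actin acetyltransferase gene NAA80 by 1.67 and YPEL2 by 1.59. The last 500 bases of NAA80 overlap HYAL3, and those of SRCAP overlap TMEM265 and those of HILPDA overlap HILPDA-AS1, on the same strand, and those of ANKRD37 overlap UFSP2, those of ANKZF1 overlap GLB1L and those of TOE1 overlap TESK2 on the other strand, so their counts may include a neighbour's tags. The same limit holds for other genes named above. MRPL33 overlaps BABAM2 there on the same strand, and MT-ATP6 ends on the base where MT-CO3 begins. ATP5PF overlaps JAM2 and NOP16 overlaps ARL10 on the other strand.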

How the data were processed

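Polyadenylated RNA of 8 HepG2 libraries was counted per gene. Per the submitters' processing notes, reads were handled with Trim Galore 0.6.10, cutadapt 3.5, STAR 2.7.9a and featureCounts. The deposited values are raw whole-number counts per Ensembl gene for 86369 identifiers, and the annotation release and strand setting are not given in the sources used here. The labels name the QuantSeq kit in both its forward and reverse forms, so tags of overlapping genes may be shared.

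Gene names and coordinates were taken from GENCODE 44 (GRCh38), which matched 61458 identifiers (558 tested genes had no entry). Genes were filtered with filterByExpr (minimum count 10), scaled by TMM and fitted by edgeR 4.0.16 (R 4.3.3) with siRNA and batch as terms, using the quasi-likelihood test with Benjamini-Hochberg adjustment over all tested genes (threshold 0.05). The fit was tested on simulated data. Those data held no siRNA effect, unlike the libraries here, and are no evidence for any result above. CPM were computed on the TMM-scaled library size. limma 3.58.1 and DESeq2 1.42.0 served as alternatives, with other scalings, filters, single siRNAs, replicate blocks, thinning and each library left out.

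Gene lists (53, with 1055 tested symbols), the comparison and its members were chosen with earlier results of these data known. Named genes were the 12 largest called changes in each direction with a mean of at least 8 CPM and separate batches, and up to 5 called members of each list described. The following were named after their values were seen: SOCS3, BCL6, ADM, BNIP3, BNIP3L, CA9, INSIG2, KDM3A, P4HA2, PDK1, VEGFA, PFKL, PKM, KLF6, KLF10, TXN, GCLM, AKR1C1, AKR1C3, NOP56, NOP58, DKC1, POLR1B, NUAK2, FJX1, ASAP1, TPM2, ACTG1, ALDH3A1, MT1F, LGR5, SERPINA1, FETUB, AHR, and members given as not called. Exact permutation tests over libraries were two-sided. 1 gene is not reported here.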

Additional observations from a re-analysis of the deposited data

Results flagged for a closer look

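Among 176 sets of 4 values (each gene named by size, each list score and each library measure, in each batch), 8 held 1 library far from the other 3 by Dixon's test, where chance alone flags about 1 in 20, or 8.8. In batch 1, siNAT10 replicate 1 was high for HILPDA (9.01 log2 CPM, against 8.4 to 8.41 in the others) and for EIF1AD (5.04, against 4.51 to 4.58). Also in batch 1, siControl replicate 1 was low for the score of junctions and keratins (-0.0843, against 0.0345 to 0.05), and siControl replicate 2 was high for the mean GC content of transcript ends (44.3%, against 44.2% in the others). In batch 2, siControl replicate 4 was high for 3 list scores. Its score was -0.115 for clock genes (-0.236 to -0.231 in the others), 0.0927 for immediate-early genes (-0.208 to -0.158) and 0.362 for YAP/TEAD targets (0.175 to 0.184). The low-count gene YPEL2 was high in siNAT10 replicate 4 of batch 2 (3.4 log2 CPM, against 3.05 to 3.07).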

How the results depend on the processing

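With all 8 libraries, 3510 genes were called and 567 of them by at least 2-fold. Within the siRNAs, on 4 libraries each, 1314 (siControl) and 1188 (siNAT10) were called, with 374 at 2-fold or more in siNAT10; fewer samples enter these fits. Dependence of the batch difference on siRNA was called for 0 genes, 1 with DESeq2, 15 with no filter on low counts, and 0 to 2 with 1 library left out (2 without siControl replicate 4 or siNAT10 replicate 3), and the cause was not tested. The other alternatives kept each count within 1.5 times: 2529 to 3639 genes with single libraries left out, 3638 with DESeq2, 3498 with size factors of the DESeq2 kind, 3405 with library size alone (1636 higher and 1769 lower), 3588 with no filter, 3173 after thinning to the smallest total, and 2787 without the siRNA term. Replicate numbers were not taken to pair libraries, as the labels give them no meaning. Their deviations from the group means had a correlation of -0.06 (batch 1) and 0.16 (batch 2) between siRNAs. With a replicate block, 3481 genes were called by limma (estimated correlation 0.02) and 2457 with same-numbered libraries summed. Of 192 named genes, 85 kept their call in all 19 alternatives and 0 changed sign. Batch 2 held fewer counts, which widens the error of genes near 1 CPM, such as FJX1 and ACTG1.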

Other observations

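Several gene families were picked after their values were seen, and some share members with the lists above (POLR1C and POLR1B with ribosome biogenesis, KDM3A with the hypoxia list). Their counts stand beside 12.9% of all genes called higher and 11.8% lower. SR splicing factors gave 6 called higher and 1 lower of 12 tested (median 0.37). SRSF6 was nearly constant within each batch, at 86.7 to 87.9 CPM in batch 1 and 199 to 229 CPM in batch 2 (2.43-fold, edgeR adjusted p = 6.1e-07). SRSF8, SRSF7 and SRSF3 stood at 1.30, 1.04 and 1.01, all called, while SRSF11 was lower (-0.40) but lost its call without siControl replicate 1 or siNAT10 replicate 3. RNA polymerase subunit genes gave 14 called higher and 0 lower of 27 (median 0.31), and the TIMM genes of mitochondrial protein import 8 and 0 of 13 (median 0.45).

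Lysine demethylases went the other way, with 1 called higher and 8 lower of 17 (median -0.29), as did semaphorins, with 0 and 6 of 12 (median -0.24). Of all genes, 11.8% were called lower. BCL6, a transcriptional repressor, was picked after its value was seen and comes from no list. It fell from 82.2, 67.7, 80.7 and 83.1 CPM to 27.2, 26.5, 30.5 and 35.8 (log2 -1.39, edgeR adjusted p = 7.4e-07). PPP1R3C, which directs a phosphatase to glycogen, fell from 37.8, 41.3, 31.9 and 40.6 CPM to between 13 and 15.2 (log2 -1.41, edgeR adjusted p = 1.4e-06). THBS1, a matrix protein, rose from 11.9, 10.5, 12.6 and 11.4 CPM to 24.7, 26.8, 34.6 and 27.3 (log2 1.28, edgeR adjusted p = 3.2e-06). Extracellular matrix genes as a list did not rise, with 3 called higher and 6 lower of 20 tested (median -0.09). The matrix proteases MMP14 and MMP15 stood at -0.84 and -0.59 and the proteoglycan HSPG2 at -0.47, all called. In BCL6, PPP1R3C and THBS1 all batch 2 libraries lay on 1 side of all batch 1 libraries, which describes picked genes and is no support.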
